A study of Homo sapiens with 12 samples.

Results

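The genes described here make, carry, bind and remove retinoic acid. They are RBP4, DHRS3, ALDH1A1, ALDH1A2, ALDH1A3, CRABP1, CRABP2, CYP26A1 and CYP26B1. They were chosen by name for these roles, with earlier results of these data known. Matched by Entrez gene number, all 9 were among the 23922 genes of the deposited tables. The cells were H9, a widely used line of human embryonic stem cells, differentiated toward hepatocytes and sampled at day 19, when the labels call them hepatocytes, and at day 7, when they call them hepatoblasts. On each day, cells had received 30 nM T4 (thyroxine), 30 nM T3 (triiodothyronine) or, as the control, 0.1% DMSO, with 2 libraries in each of the 6 groups. All groups share the 1 cell line, and the labels give neither the start and length of hormone exposure nor whether the 2 libraries of a group were separate cultures. The p-values therefore rest on how far these libraries differ, and that spread may be technical.

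Retinol travels in blood bound to RBP4, which itself rides on transthyretin (TTR), and enters many cells through the receptor STRA6. Retinol dehydrogenases such as RDH10 turn it into retinal, and DHRS3 turns retinal back into retinol. The ALDH1A enzymes oxidise retinal irreversibly to retinoic acid, the ligand of the RAR receptors, which act as partners of RXR. CRABP1 and CRABP2 bind retinoic acid in the cytoplasm, CRABP2 handing it to RAR in the nucleus, and the CYP26 enzymes break it down. The liver is the main source of circulating RBP4, and hepatic stellate cells are the main store of retinyl esters in the body. T3 and T4 act on nuclear receptors that also pair with RXR, and T4, which carries an additional iodine atom, is the weaker ligand of those receptors.

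Each library held 18363549 to 19306181 expected counts. Calls were made at an adjusted p of at most 0.05 in edgeR's quasi-likelihood test, with adjustment over the 18101 tested genes. The gene lists below overlap, as TTR, STRA6 and RARB each stand in more than 1 of them, so their counts are not independent. Counts of called genes in the lists stand beside these shares of all tested genes. At day 19, 21% rose and 21.9% fell with T4, and 25.1% rose and 27.3% fell with T3. At day 7, 3.9% rose and 2.52% fell with T4, and 9.43% rose and 6.54% fell with T3. Levels are CPM, counts scaled to library size with TMM factors, and FPKM, which is also scaled to transcript length, is used where levels of different genes are compared. All 9 genes passed the filter on low counts, but ALDH1A2 would not have passed it with the day 7 libraries alone, so its rise between the days could not have been a fall. ALDH1A3 had 5.22 and 3.72 expected counts in DMSO at day 7 and passed through libraries where it was higher. Its rises over those DMSO libraries, under hormone and between the days, thus had little room to be falls. The labelled cell type was checked against 12 hepatocyte genes, none of which was at 0 in any group. AFP, the fetal serum protein, reached 32930 and 35470 CPM in DMSO at day 19, but ALB, encoding albumin, stood at 17.8 and 20.8 CPM there and CYP3A4, an adult liver enzyme, at 0.666 and 0.546 CPM.

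RBP4, the plasma carrier of retinol (Entrez gene 5950, GRCh38 chromosome 10, 93591694 to 93601744), was the most abundant of the genes at day 19 and the one that fell furthest under hormone. At day 19 it had 413 and 439 CPM in the T4 libraries, 136 and 220.4 CPM in the T3 libraries, and 2563 and 2775 CPM in the DMSO libraries. Both hormone groups lay far below DMSO, and the T3 libraries lay below the T4 libraries. The log2 fold change was -2.65 for T4 (SE 0.143, adjusted p = 2.77e-09) and -3.90 for T3 (SE 0.153, adjusted p = 4.12e-11). At day 7 RBP4 had 117 and 114 CPM with T4, 123 and 119 CPM with T3, and 139 CPM in each DMSO library. The hormone libraries of day 7 were thus lower in every case but by little, with log2 fold changes of -0.27 for T4 (adjusted p = 0.316) and -0.20 for T3 (adjusted p = 0.388), neither of which passed. Both passed when day 7 was fitted by itself, with adjusted p of 9.3e-05 for T4 and 0.000383 for T3.

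In DMSO, RBP4 rose 19.2-fold at day 19 over day 7 (log2 fold change 4.26, SE 0.155). Under T3 the means were 178 ± 59.5 CPM at day 19 and 121 ± 2.79 CPM at day 7 (SD, n = 2). At day 19 RBP4 fell beside other liver genes, and intestine genes fell too, as given below. Of the 12 hepatocyte genes, 10 fell with T4 and 10 with T3 at day 19, and their summed level was 7439 to 8351 CPM with T4, 2903 to 3892 CPM with T3, and 64080 to 67740 CPM in DMSO. AFP alone had 1686 and 2023 CPM with T4, 430 and 642 CPM with T3, and 32930 and 35470 CPM in DMSO. The part of these cell types in the fall of RBP4 was not tested, and in bulk RNA fewer cells of a type and less RNA per cell cannot be told apart. TTR, which carries RBP4 in plasma, had 564 and 600.1 CPM with T4, 213 and 307 CPM with T3, and 2557 and 2915 CPM in DMSO at day 19, log2 fold changes of -2.23 (SE 0.119) and -3.40 (SE 0.125).

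**Figure D1:**
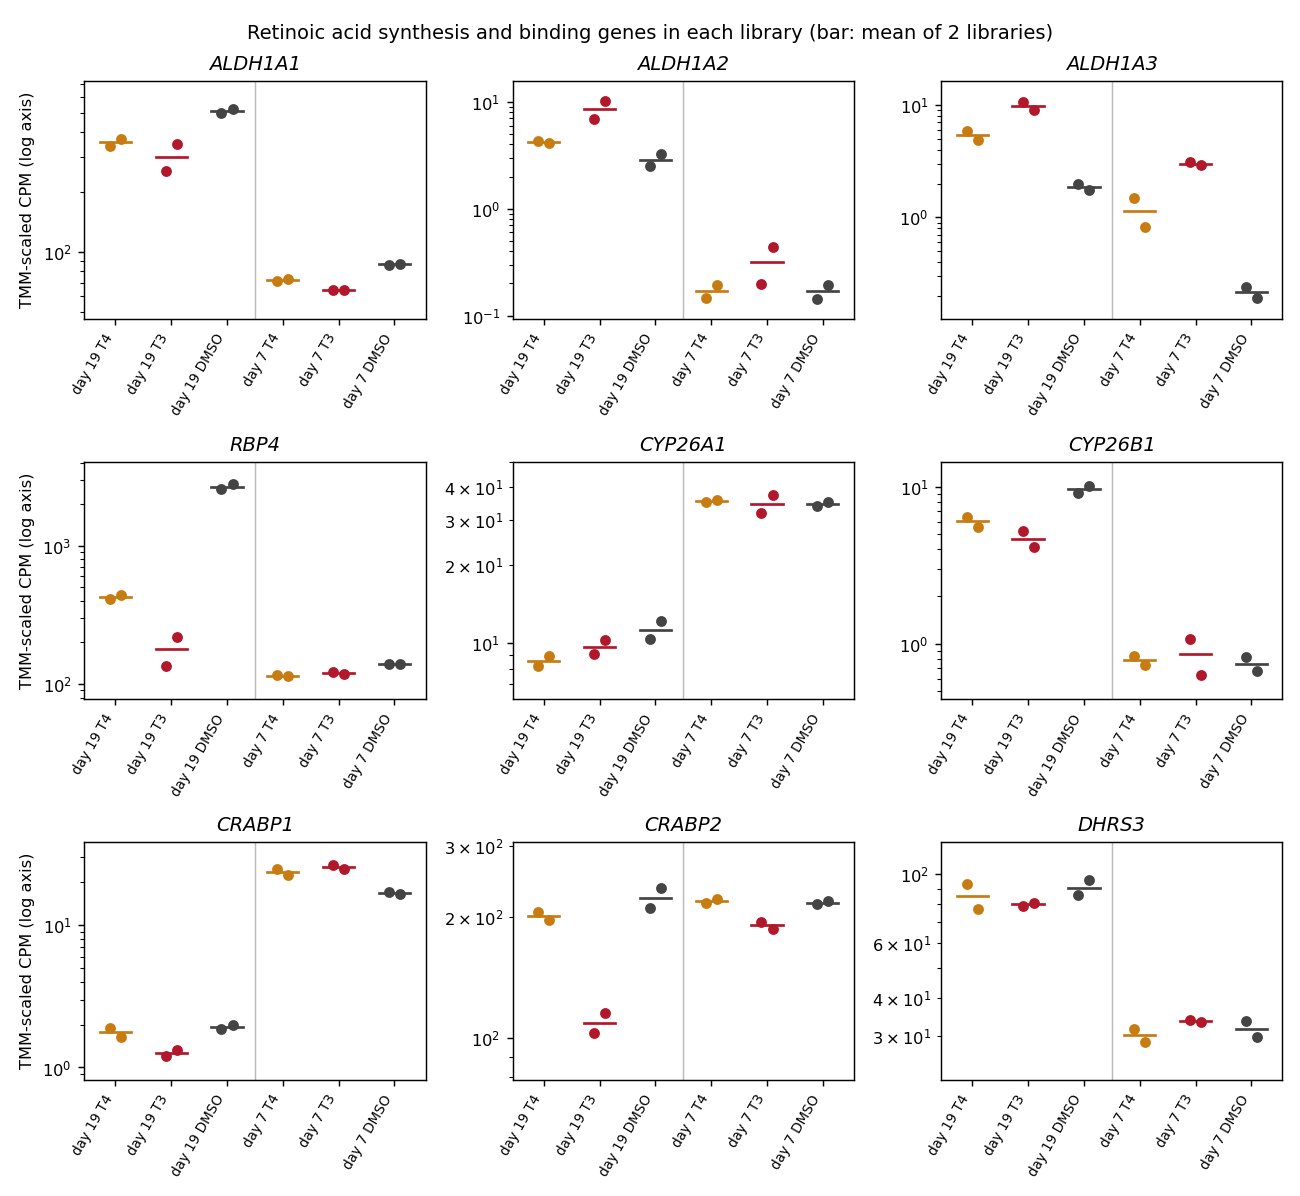
TMM-scaled CPM of each gene (log axis) in the 12 libraries, with day 19 left and day 7 right of the grey line and, on each day, T4, T3 and DMSO. Points are libraries and bars the means of 2. RBP4 stands at 2563 and 2775 CPM in DMSO at day 19 and at 439 CPM or less everywhere else, while ALDH1A3 is lowest in DMSO on both days.

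Genes of retinol uptake, storage and carriage, a list that holds TTR, also mostly fell under hormone at day 19. Of 13 such genes, all tested, 8 fell and 1 rose with T4 (median log2 fold change -0.52, against 0.00046 for all tested genes), and 9 fell and 1 rose with T3 (median -0.55, against -0.027). The gene that rose was STRA6, the cell-surface receptor for RBP4. It stood at 116 and 121.5 CPM with T4, 127 and 107 CPM with T3, and 46.5 and 39.05 CPM in DMSO. Its log2 fold change was 1.47 for T4 (SE 0.0899) and 1.45 for T3 (SE 0.0901). RBP2, the retinol-binding protein of intestinal epithelium, had 55.7 and 58.3 CPM with T4, 15.3 and 22.6 CPM with T3, and 409 and 476 CPM in DMSO. All 6 tested intestine genes fell with each hormone at day 19, their summed level being 753 to 977 CPM with T4, 383 to 462 CPM with T3, and 1963 to 2129 CPM in DMSO, with MUC2 at 0 with T4 and in DMSO. Their part in the RBP2 result was not tested. LRAT, the enzyme that esterifies retinol for storage, was at 1.68 to 2.68 CPM in all libraries of day 19 and did not pass (log2 fold changes 0.02 for T4 and 0.15 for T3). At day 7, 2 genes of the list fell with T4 and 5 with T3, and none rose. LRAT was among them, at 8.50 and 7.22 CPM with T4, 6.57 and 7.39 CPM with T3, and 11.3 and 12.1 CPM in DMSO.

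DHRS3, the retinaldehyde reductase that returns retinal to retinol (Entrez gene 9249, GRCh38 chromosome 1, 12567910 to 12618210), responded to neither hormone at the threshold used. The day 19 libraries had 93.1 and 77.1 CPM with T4, 79.3 and 80.7 CPM with T3, and 85.5 and 95.8 CPM in DMSO, so that T4 and DMSO overlapped and T3 lay just under DMSO. The 95% interval of the log2 fold change was -0.28 to 0.09 for T4 and -0.37 to 0.0066 for T3, which passed without DMSO replicate 1 (-0.26, adjusted p = 0.0431). At day 7 the intervals were -0.28 to 0.15 for T4 and -0.13 to 0.30 for T3. DHRS3 rose 2.86-fold in DMSO at day 19 over day 7 (SE of the log2 value 0.0929, adjusted p = 1.51e-09). RDH10, which works in the opposite direction, rose by a log2 fold change of 2.23 between the days in DMSO (SE 0.0818). It was lower under both hormones at day 19, with 39.2 and 38.2 CPM with T4, 32.3 and 36.5 CPM with T3, and 46.9 and 47.5 CPM in DMSO. At day 19, 21.9% of all tested genes fell and 21% rose with T4, and 27.3% fell and 25.1% rose with T3. Of 18 listed retinol and retinal oxidoreductases 13 could be tested, of which 7 fell and 2 rose with T4 at day 19 and 7 fell and 1 rose with T3. RDH13, a mitochondrial member of the retinol dehydrogenase family, was among those that rose, by 0.59 with T4 and 1.08 with T3.

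ALDH1A1 (Entrez gene 216, GRCh38 chromosome 9, 72900671 to 72953053), a retinaldehyde dehydrogenase also known as a major cytosolic aldehyde dehydrogenase of adult liver, was the bulk of the ALDH1A family in every library. Its day 19 level was 343 and 369 CPM with T4, 254.5 and 349 CPM with T3, and 500.3 and 521.5 CPM in DMSO. Hormone libraries lay below the DMSO libraries without overlap, and the T4 and T3 libraries overlapped. ALDH1A1 fell by 0.52 on the log2 scale with T4 (SE 0.0997, adjusted p = 0.000658) and by 0.76 with T3 (SE 0.1, adjusted p = 1.5e-05). At day 7 it had 71.5 and 73.6 CPM with T4, 64.3 and 64.6 CPM with T3, and 86.7 and 87.01 CPM in DMSO. The groups were ordered as at day 19 and did not overlap. T3 passed at day 7 (log2 fold change -0.43, SE 0.109, adjusted p = 0.0157) but not without any 1 of the 4 libraries (0.0829 to 0.0944), and T4 did not pass (-0.26, adjusted p = 0.187) except when day 7 was fitted by itself (0.000334). In DMSO, ALDH1A1 rose 5.88-fold at day 19 over day 7 (adjusted p = 2.38e-11).

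ALDH1A3 (Entrez gene 220, GRCh38 chromosome 15, 100879831 to 100916626), the isozyme known for retinoic acid synthesis in eye and nasal development, was higher with both hormones on both days. At day 7 it had 1.47 and 0.829 CPM with T4, 3.09 and 2.94 CPM with T3, and 0.241 and 0.192 CPM in DMSO. These CPM rest on few reads, 30.2 and 16.9 expected counts with T4, 62.5 and 60.1 with T3, and 5.22 and 3.72 in DMSO. Such low counts in DMSO left little room for a fall. All hormone libraries lay above both DMSO libraries, and T3 lay above T4. On the log2 scale the rise was 2.37 for T4 (SE 0.42, adjusted p = 0.00342) and 3.76 for T3 (SE 0.352, adjusted p = 7e-06). On log2(FPKM + 0.1), which understates changes at such low levels, limma gave 1.43 for T4 (adjusted p = 0.00757) and 2.58 for T3 (adjusted p = 8.94e-05). The T4 call did not pass without DMSO replicate 2 (adjusted p = 0.0534) or T4 replicate 1 (0.0591). At day 19 ALDH1A3 had 5.88 and 4.83 CPM with T4, 10.7 and 9.02 CPM with T3, and 1.999 and 1.76 CPM in DMSO. The order of the groups was that of day 7, at higher levels. The rise on the log2 scale was 1.51 for T4 (SE 0.23, adjusted p = 9.02e-05) and 2.38 for T3 (SE 0.218, adjusted p = 3.26e-07).

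The antisense gene ALDH1A3-AS1 overlaps ALDH1A3, and the strand of counting is not given in the sources used here. It had 10 to 31 counts per library and passed in none of the 4 hormone comparisons (log2 fold changes -0.09 for T4 and 0.28 for T3 at day 19, -0.03 for T4 and 0.51 for T3 at day 7). At day 7 the rise of ALDH1A3 ran beside that of pluripotency genes, of which 7 of 8 rose with T4 and 7 of 8 with T3. Their summed level at day 7 was 2538 to 2570 CPM with T4, 3073 to 3103 CPM with T3, and 1664 to 1682 CPM in DMSO, with none at 0. At day 19 that sum was 243 to 244 CPM with T4, 240.4 to 252 CPM with T3, and 184 to 188 CPM in DMSO, and 5 of 8 genes rose with T4 and 4 with T3. Amnion and surface ectoderm genes also rose beside ALDH1A3 at day 19, 5 of 7 tested with T4 and 4 of 7 with T3, while 2 fell with each. Their summed level at day 19 was 2076 to 2253 CPM with T4, 2383 to 2602 CPM with T3, and 1052 to 1113 CPM in DMSO, with none at 0. At day 7 it was 657 to 675 CPM with T4, 729.7 to 737.5 CPM with T3, and 640.2 to 647.5 CPM in DMSO, with KRT14 at 0 with T4. The part of either cell type in the ALDH1A3 result was not tested.

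ALDH1A2 (Entrez gene 8854, GRCh38 chromosome 15, 57953429 to 58065711), the main retinoic acid synthesising enzyme of the trunk mesoderm of the embryo, was near the limit of detection at day 7. It had 3 to 9 expected counts in each library of that day, and no hormone comparison there passed. Day 19 brought 4.28 and 4.09 CPM with T4, 6.95 and 10.1 CPM with T3, and 2.48 and 3.28 CPM in DMSO. The 3 groups did not overlap, with T3 highest and DMSO lowest. The log2 fold change was 1.57 for T3 (SE 0.232, adjusted p = 4.68e-05), whereas T4, at 0.54 (95% interval 0.007 to 1.07, adjusted p = 0.0968), did not pass. With scaling by library totals alone, T4 passed (0.67, adjusted p = 0.0418). Genes of cells that use ALDH1A2 in the embryo mostly moved the other way with T3 at day 19, when 27.3% of all tested genes fell and 25.1% rose. Of 11 tested mesenchyme and stellate cell genes 8 fell and 1 rose (summed level 2252 to 3114 CPM with T3 and 6271 to 6532 CPM in DMSO), and of 7 mesothelium genes 4 fell and 1 rose (1580 to 1651 CPM with T3 and 1508 to 1512 CPM in DMSO), with none at 0. KRT19, an epithelial keratin, held most of the mesothelium sum. CALB2, also on the mesothelium list, went up, with 202 and 180 CPM with T3 and 76.3 and 74.5 CPM in DMSO. The part of either cell type in the ALDH1A2 result was not tested.

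Per length, ALDH1A1 kept 98.1% and 98.4% of the summed ALDH1A FPKM with T4 at day 19, 95.5% and 96.4% with T3, and 99.4% and 99.3% in DMSO. ALDH1A2 and ALDH1A3 together had 2.67 and 2.36 FPKM with T4 at day 19, 4.47 and 5.06 FPKM with T3, and 1.15 and 1.27 FPKM in DMSO. At day 7 they had 0.53 and 0.32 FPKM with T4, 0.99 and 1.05 FPKM with T3, and 0.13 FPKM in each DMSO library. In each hormone library the minor isozymes together held a larger share than in the DMSO libraries of the same day, while ALDH1A1 was the major one in all 12.

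**Figure D2:**
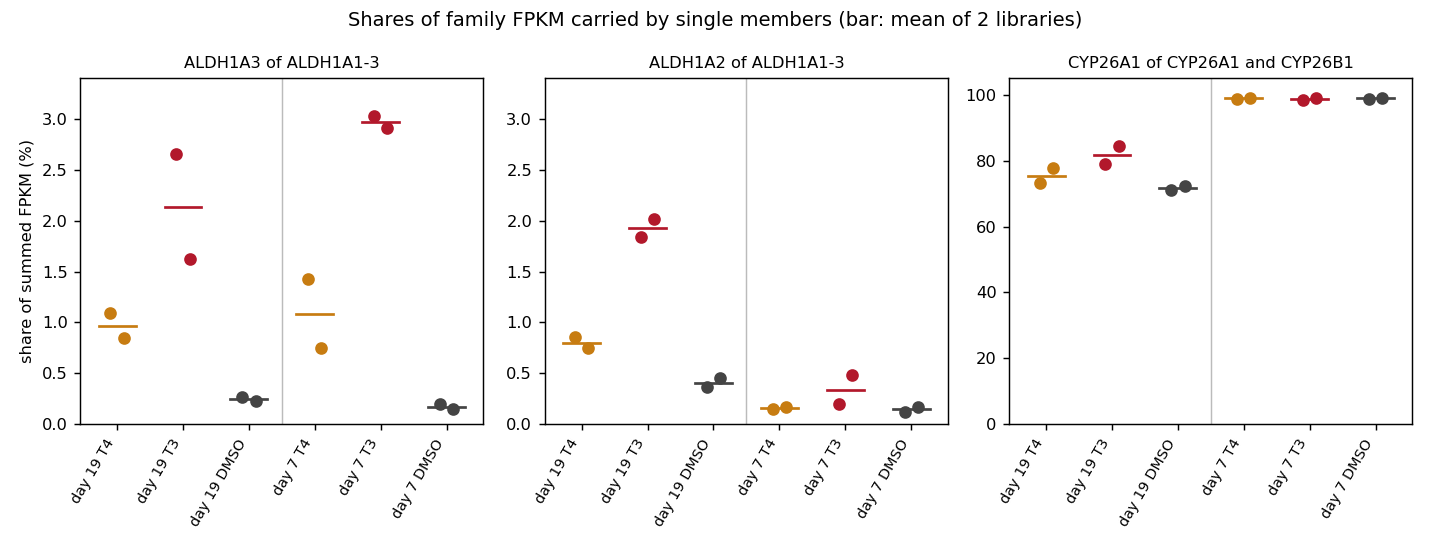
Share (%) of the summed FPKM of ALDH1A1, ALDH1A2 and ALDH1A3 carried by ALDH1A3 (left) and by ALDH1A2 (middle), and of the summed FPKM of CYP26A1 and CYP26B1 carried by CYP26A1 (right, wider axis), in the 12 libraries. Points are libraries and bars the means of 2. ALDH1A3 reaches 3.03% and 2.91% with T3 at day 7, against 0.194% and 0.145% in DMSO, and CYP26A1 holds over 98% at day 7.

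CRABP1 (Entrez gene 1381, GRCh38 chromosome 15, 78340353 to 78348225), a cytoplasmic retinoic acid binding protein linked to its breakdown, was a day 7 gene. It had 24.7 and 22.6 CPM with T4 at day 7, 26.4 and 24.8 CPM with T3, and 17.2 and 16.6 CPM in DMSO. Both hormone groups lay above DMSO, and the higher T4 library lay just under the lower T3 library. With T4 the log2 fold change was 0.49 (SE 0.0904, adjusted p = 0.00478) and with T3 0.60 (SE 0.09, adjusted p = 0.000437). The T4 call did not pass with DESeq2 (0.0544), without DMSO replicate 2 (0.0753) or without T4 replicate 1 (0.0955). At day 19 CRABP1 had 1.88 and 1.65 CPM with T4, 1.20 and 1.34 CPM with T3, and 1.88 and 2.004 CPM in DMSO. Here the T3 libraries were lowest, but neither T3 (-0.61, adjusted p = 0.0552) nor T4 (-0.14, adjusted p = 0.701) passed, although T3 did with limma on FPKM (adjusted p = 0.000699). In DMSO, CRABP1 fell to 1.94 ± 0.0892 CPM at day 19, against 16.9 ± 0.489 CPM at day 7 (SD, n = 2, log2 fold change -3.12, SE 0.133). Of the 8 pluripotency genes, 7 also fell between the days in DMSO, and 1, CRIPTO, rose. Of the 7 that rose with hormone at day 7, CRIPTO was thus the exception, and LIN28A fell between the days without passing under hormone at day 7. The part of these genes' cells in the CRABP1 values was not tested.

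CRABP2 (Entrez gene 1382, GRCh38 chromosome 1, 156699606 to 156705784), which delivers retinoic acid to RAR, kept a high level except with T3 at day 19. Its libraries of day 19 had 206 and 197 CPM with T4, 103 and 116 CPM with T3, and 211 and 236 CPM in DMSO. The T3 libraries were far below all others, while T4 lay just under DMSO. The log2 fold change was -1.03 for T3 (SE 0.068, adjusted p = 9.38e-09), and T4 did not pass (-0.15, 95% interval -0.29 to -0.0091, adjusted p = 0.0817) except without DMSO replicate 1 (-0.23, 0.0207). At day 7 it had 216 and 222 CPM with T4, 195 and 187 CPM with T3, and 215 and 219 CPM in DMSO. T3 was lower there by 0.19 on the log2 scale but did not pass (adjusted p = 0.0683), although it did with day 7 fitted by itself (0.000495) and with library totals (0.0391). Between the days CRABP2 did not pass in DMSO (0.04, adjusted p = 0.59). With library totals the value was -0.36 and passed (0.000214), in a scaling that moved the median of all genes by -0.404. FABP5, which can carry retinoic acid to another nuclear receptor, PPAR-delta, rose with both hormones on both days, with log2 fold changes of 1.26 for T4 and 1.58 for T3 at day 19 and of 0.74 and 1.08 at day 7.

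CYP26A1 (Entrez gene 1592, GRCh38 chromosome 10, 93073475 to 93077885), the retinoic acid hydroxylase, is a textbook direct target of retinoic acid, so its start region is shown. The window below comes from RefSeq on GRCh38.p14 (chr10:93073643-93073942, plus strand, 250 bases before to 50 after an annotated start). The capitals mark the 2 half-sites of a direct repeat with 5 bases between them, read on the opposite strand.
CYP26A1: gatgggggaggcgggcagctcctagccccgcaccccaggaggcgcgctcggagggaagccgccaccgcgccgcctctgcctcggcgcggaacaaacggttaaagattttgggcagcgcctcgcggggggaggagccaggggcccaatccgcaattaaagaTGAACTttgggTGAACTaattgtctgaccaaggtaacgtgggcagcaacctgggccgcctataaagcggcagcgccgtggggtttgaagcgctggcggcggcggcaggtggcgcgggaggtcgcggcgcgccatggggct

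The half-site searched was AGGTCA, or its variant AGTTCA, or the variant GGTTCA, or the variant GGGTCA. A repeat was any pair of these in the same orientation, on both strands, with 1, 2 or 5 bases between them, the spacings known for RAR with RXR, or with 4, the spacing known for thyroid hormone receptors. The repeat in CYP26A1, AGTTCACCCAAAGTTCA on the strand read, begins 90 bases before the start. A repeat with 5 bases between was in 0.088% of the 35116 windows of the same length, one with 4 in 0.085%, and any of these in 0.336%. The other 14 windows of the 9 genes held no such repeat, which says nothing of binding elsewhere. The transcript NM_000783, whose GENCODE 29 start at 93073890 lies inside this window, beside the start on which it is built, carried 84.4% to 100% of the CYP26A1 counts of a library. By the same annotation, NM_004753 of DHRS3, NM_001878 of CRABP2, NM_000693 of ALDH1A3 and NM_003888 of ALDH1A2 start outside the windows searched for those genes.

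CYP26A1 itself differed far more between days than under hormone. In the day 19 libraries CYP26A1 had 8.22 and 8.92 CPM with T4, 9.10 and 10.3 CPM with T3, and 10.4 and 12.2 CPM in DMSO. The T4 libraries were lowest, and T3 lay just under DMSO. T4 passed (log2 fold change -0.40, SE 0.124, adjusted p = 0.0186) but not with day 19 fitted by itself (0.0601), with DESeq2 (0.0553), with limma on FPKM (0.0671), with library totals (0.103), or without DMSO replicate 2 (0.158) or T4 replicate 1 (0.116). T3 did not pass (-0.21, adjusted p = 0.164). At day 7 it had 35.2 and 35.7 CPM with T4, 31.7 and 37.3 CPM with T3, and 33.9 and 35.2 CPM in DMSO. The T3 libraries lay on either side of all the others, and the T4 libraries lay barely above DMSO. The 95% intervals of the log2 fold change were -0.15 to 0.22 for T4 and -0.19 to 0.19 for T3. In DMSO the gene fell to 11.3 ± 1.22 CPM at day 19, against 34.6 ± 0.926 CPM at day 7 (log2 fold change -1.61, SE 0.103).

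CYP26B1 (Entrez gene 56603, GRCh38 chromosome 2, 72129238 to 72147862), the second retinoic acid hydroxylase, went the other way between the days. It rose 12.8-fold in DMSO at day 19 over day 7 (SE of the log2 value 0.235, adjusted p = 2.47e-09). Libraries of day 19 had 6.45 and 5.57 CPM with T4, 5.21 and 4.13 CPM with T3, and 9.15 and 10.1 CPM in DMSO. Hormone libraries lay below DMSO without overlap, with log2 fold changes of -0.68 for T4 (SE 0.177, adjusted p = 0.00627) and -1.04 for T3 (SE 0.183, adjusted p = 0.00022). The T4 call did not pass with DESeq2 (0.0587), with limma on FPKM (0.0661) or without T4 replicate 2 (0.057). At day 7 it had 0.636 to 1.08 CPM over the 6 libraries, and the 3 groups overlapped. Per length, CYP26A1 was still the larger of the pair at day 19, with 73.3% and 77.7% of their summed FPKM with T4, 79.1% and 84.5% with T3, and 71.1% and 72.4% in DMSO. CYP26C1, the family's other member, was at 0 to 0.385 CPM in every library.

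**Figure D3:**
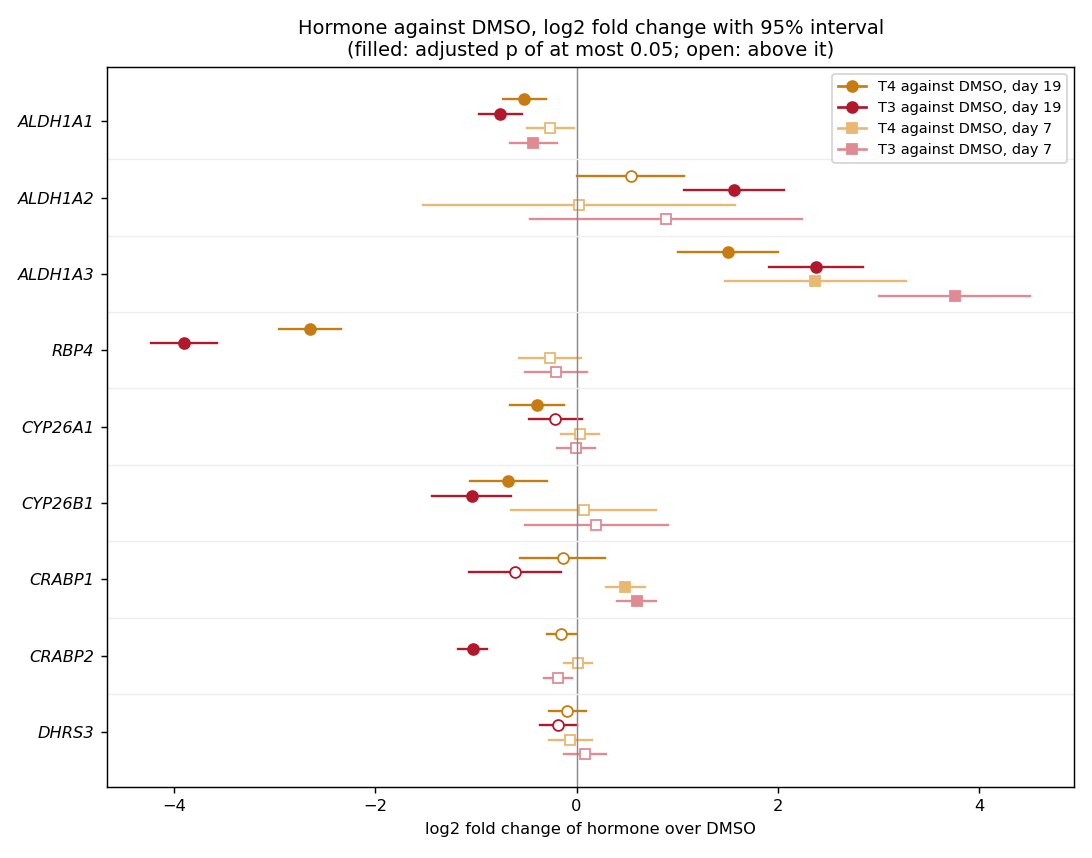
Log2 fold change of hormone over DMSO for each gene, with 95% intervals, for T4 and T3 at day 19 (circles) and day 7 (squares). Filled symbols passed an adjusted p of 0.05. ALDH1A3 lies right of 0 in all 4 comparisons, and RBP4 at day 19 lies furthest left, at -2.65 for T4 and -3.90 for T3. The CRABP1 intervals of day 19 are narrower than the p of edgeR's test allows.

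Counted together, 5 of the 9 genes were called with T4 at day 19, where 42.8% of all tested genes were, 1 of them higher (21% of all genes) and 4 lower (21.9%). With T3 at day 19, 6 of 9 were called (52.3% of all genes), 2 higher (25.1%) and 4 lower (27.3%). These counts are close to the background and show nothing particular to the 9 genes. At day 7, 2 of 9 were called with T4 (6.42% of all genes), both higher (3.9%) and none lower (2.52%), and 3 of 9 with T3 (16%), 2 higher (9.43%) and 1 lower (6.54%). Between the days in DMSO 8 of 9 were called, beside 72.4% of all genes, 6 higher (37.6%) and 2 lower (34.9%). Those 6 include ALDH1A2 and ALDH1A3, whose counts in DMSO at day 7 were too low to leave room for a fall. ALDH1A3 is also among the genes called higher with each hormone at day 7, so these directions are partly set by the filter. The difference of the T3 effect between days was called for 5 of 9 genes (38% of all genes), all 5 lower (20.9%) and 0 higher (17.1%), and that of the T4 effect for 2 of 9 (27.7%), both lower (15.3%) and 0 higher (12.4%). The T4 and T3 comparisons of a day share their DMSO libraries, so their values are not independent of each other.

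T4 and T3, both at 30 nM, were also set against each other within a day, over 9 genes on each of 2 days. At day 19, 4 of 9 genes differed, where 15.7% of all genes did, 2 higher with T4 (7.42%) and 2 lower (8.31%). RBP4 was higher with T4 by 1.26 on the log2 scale (95% interval 0.95 to 1.56, adjusted p = 5.53e-05) and CRABP2 by 0.88 (0.74 to 1.03, adjusted p = 2.49e-06). ALDH1A2 was lower with T4, at -1.03 (-1.50 to -0.56, adjusted p = 0.00565), and so was ALDH1A3, at -0.88 (-1.28 to -0.48, adjusted p = 0.0054). The ALDH1A2 difference did not pass without T3 replicate 2 (0.0577), nor that of ALDH1A3 without T3 replicate 1 (0.0521) or T4 replicate 2 (0.059). ALDH1A1 did not pass (0.24) except without T3 replicate 2 (0.49, adjusted p = 6.7e-05), and CRABP1 (0.47) passed with limma on FPKM (0.0059). For the genes that did not pass, the intervals were 0.024 to 0.45 for ALDH1A1, -0.46 to 0.09 for CYP26A1, -0.04 to 0.77 for CYP26B1, 0.014 to 0.94 for CRABP1 and -0.10 to 0.28 for DHRS3. The CRABP1 interval leaves out 0 although its p before adjustment was 0.0934 in edgeR's test, so that interval is too narrow. At day 7 only ALDH1A3 of the 9 genes was called (0.365% of all genes), lower with T4 (0.326%, with 0.0387% higher), at -1.38 (-1.93 to -0.84, adjusted p = 0.0295), and it was not called without T3 replicate 1 (0.278), T3 replicate 2 (0.187) or T4 replicate 2 (0.456), or with limma on FPKM (0.137). CRABP2 and ALDH1A1 passed at day 7 with that day fitted by itself (0.00402 and 0.0433). Among the other 8 genes at day 7 the interval ran from -0.38 to 0.24 for RBP4, from 0.059 to 0.34 for CRABP2, and most widely, from -2.22 to 0.48, for ALDH1A2.

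**Figure D4:**
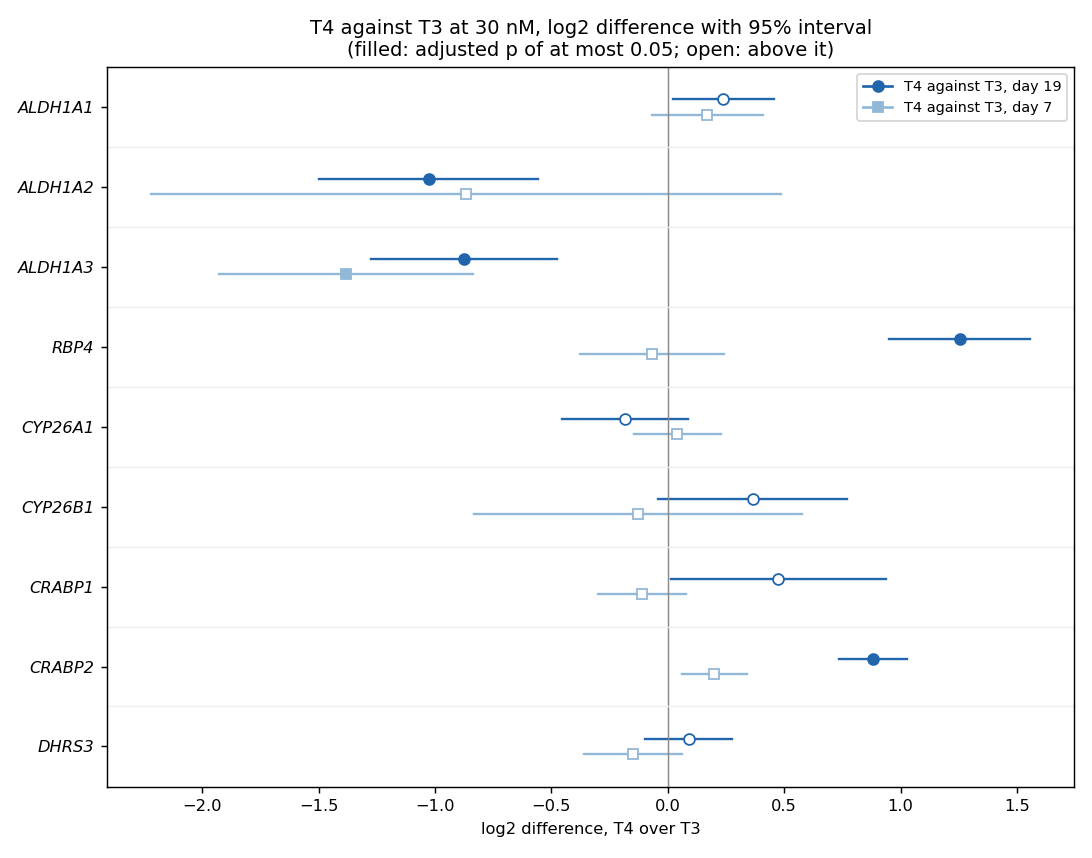
Log2 difference of T4 over T3 at 30 nM for each gene, with 95% intervals, at day 19 (circles) and day 7 (squares). Filled symbols passed an adjusted p of 0.05. At day 19 RBP4 and CRABP2 lie to the right and ALDH1A2 and ALDH1A3 to the left, and at day 7 ALDH1A3 alone is filled. The CRABP1 interval of day 19 lies right of 0, but its p before adjustment was 0.0934 in edgeR's test.

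Set side by side per length, RBP4, ALDH1A1, CRABP2 and DHRS3 had the highest levels in every group of day 19. In DMSO at day 19 the means were 2478 ± 137 FPKM for RBP4, 183 ± 5.24 for ALDH1A1, 179 ± 13.6 for CRABP2, 46.1 ± 4.55 for DHRS3, 4.55 ± 0.502 for CYP26A1, 2.19 ± 0.099 for CRABP1, 1.79 ± 0.120 for CYP26B1, 0.755 ± 0.134 for ALDH1A2 and 0.455 ± 0.0495 for ALDH1A3 (SD, n = 2). ALDH1A1 and CRABP2 did not differ beyond their spread. In DMSO at day 7 CRABP2 was first, at 230 ± 3.28 FPKM, before RBP4 at 170.3 ± 0.587 and ALDH1A1 at 41.2 ± 0.191. CRABP1, at 25.1 ± 0.679 FPKM, DHRS3, at 21.8 ± 1.66, and CYP26A1, at 18.4 ± 0.502, followed, and CYP26B1, ALDH1A3 and ALDH1A2 had 0.185, 0.07 and 0.06 FPKM. With T3 at day 19 ALDH1A3 (2.45 ± 0.269 FPKM) and ALDH1A2 (2.32 ± 0.686) ranked above CRABP1 (1.51 ± 0.149) and CYP26B1 (0.915 ± 0.134), the reverse of their order in DMSO.

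RARA, RARB and RXRA were lower with both hormones at day 19. RARA, the broadly expressed receptor, had 42.9 and 38.8 CPM with T4, 35.03 and 39.4 CPM with T3, and 56.5 and 55.4 CPM in DMSO. RARB, itself induced by retinoic acid in many cells, had 3.65 and 4.15 CPM with T4, 2.22 and 2.85 CPM with T3, and 6.66 and 5.59 CPM in DMSO. Its log2 fold changes were -0.65 for T4 (SE 0.185) and -1.27 for T3 (SE 0.199). RARG fell with T3 (-0.56, SE 0.0831) and did not pass with T4 (-0.01, adjusted p = 0.913), and RXRA, the common partner of RAR and thyroid hormone receptors, fell by 0.26 with T4 and by 0.34 with T3. Of all tested genes at day 19, 21.9% fell and 21% rose with T4, and 27.3% fell and 25.1% rose with T3. Of 11 tested receptors and partners 5 fell, 3 rose and 3 did not pass with T4, and 6 fell, 3 rose and 2 did not pass with T3. NCOA3, a coactivator, was among those that rose, by 1.20 with T4 and 1.88 with T3. At day 7 none of the 11 fell, and 1 with T4 and 2 with T3 rose, FABP5 in both. RARB there stood at -0.14 for T4 (adjusted p = 0.69) and -0.46 for T3 (adjusted p = 0.0831).

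Textbook retinoic acid induced genes moved in both directions at day 19, with more rising than falling under T4. Of 21 tested genes 12 rose and 6 fell with T4 (median log2 fold change 0.44, against 0.00046 for all tested genes). Of all tested genes, 21% rose and 21.9% fell there. With T3, 9 of the 21 rose and 8 fell (median 0.15, against -0.027), beside 25.1% and 27.3% of all tested genes. PLAAT4, first described as a retinoic acid receptor responder, had 35.6 and 33.02 CPM with T4, 41.4 and 63.3 CPM with T3, and 4.06 and 4.37 CPM in DMSO. At day 7, 7 of the 21 fell and 0 rose with T4 (median -0.45, against 0.0068 for all tested genes). With T3, 5 fell and 0 rose (median -0.36, against 0.0077). Of all tested genes at day 7, 2.52% fell and 3.9% rose with T4, and 6.54% fell and 9.43% rose with T3. Markers of several cell types moved with the induced genes at day 7. Of 6 tested definitive endoderm genes 4 fell with each hormone (summed level 331 to 340.2 CPM with T4, 289 to 305 CPM with T3, and 446 to 447 CPM in DMSO), and so did 4 of 6 endothelium genes (44.4 to 45.4 CPM with T4, 43.5 to 45.4 CPM with T3, and 75.2 to 75.7 CPM in DMSO). Of 12 hepatocyte genes 4 fell with T4 and 6 with T3 (4068 to 4140 CPM with T4, 3832 to 3949 CPM with T3, and 5186 to 5218 CPM in DMSO), while 7 of 8 pluripotency genes rose, as given above. None of these markers was at 0, and their part in the fall of the induced genes was not tested. HOXB2, a hindbrain and trunk patterning gene, had 15.3 and 16.1 CPM with T4, against 24.8 and 22.6 CPM in DMSO. TGM2, a transglutaminase, fell by 0.97 with T3 at day 7 (SE 0.131), and HOXB3 by 0.84 with T4 and 0.78 with T3. NR2F2, an orphan nuclear receptor, was higher under hormone at day 19 and lower at day 7: it had 309 and 326 CPM with T4 at day 19, 364.5 and 314 CPM with T3, and 196 and 174 CPM in DMSO, while at day 7 it had 10.7 and 10.4 CPM with T4, 10.4 and 9.44 CPM with T3, and 16.1 and 15.6 CPM in DMSO. In DMSO between the days 16 of the 21 rose and 3 fell, beside 37.6% higher and 34.9% lower of all tested genes.

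The split of a gene's counts over its transcripts is an estimate and was unsteady for the low genes. ALDH1A1 and CRABP1 were each listed with 1 transcript. In RBP4 the transcript NM_006744 carried 96.04% to 99.3% of the counts of a library, and in DHRS3 NM_004753 carried 78.6% to 94.0%. In CRABP2 the share of NM_001878 ran from 57.2% to 96.9% and differed within groups as much as between them, at 57.2% and 91.5% in the T3 libraries of day 7. In ALDH1A3, NM_000693 held 37.05% and 33.2% with T4 at day 7, 99.4% and 75.9% with T3 and 100% in both DMSO libraries, on the few counts given above. For ALDH1A2 and CYP26B1, single libraries gave all counts to a transcript that others listed at 0, on few counts. The sum per gene was therefore used throughout.

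The tested genes whose pattern over the 12 libraries was most like that of a member were found by the correlation of log2 CPM, given here as a description, since the 2 days separate the libraries. For RBP4 they were AQP3, a water and glycerol channel (Pearson r 0.997), DGAT1, a triglyceride synthesis enzyme that can also esterify retinol (0.996), and QPRT (0.996). For ALDH1A3 they were MKRN1 (0.9752), AEN, a nuclease (0.974), and TUBA4A, a tubulin (0.973). For CRABP1 they were PSIP1 (0.999) and the cell division genes CDCA8 (0.998) and CDC20 (0.998). For CRABP2 they were CCDC163 (0.978), NRGN (0.937) and IGDCC3 (0.937). For ALDH1A2 the closest was SERPINB1 (0.9945), for CYP26A1 ZNF267 (0.998), for CYP26B1 SRC (0.995) and for DHRS3 RAB1B (0.997). For ALDH1A1 the closest was GSTA2, a glutathione transferase of liver (0.999), and the 100th closest gene still had 0.990, so such values are common here.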

How the data were processed

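Per the file headers, every one of the 12 libraries has a table of transcripts giving expected counts and FPKM. The submitters' processing notes name hg38, HISAT, Bowtie2 and RSEM, with no versions or roles. The deposited expected counts were not normalised; the deposited FPKM values are, as the unit's name says, per kilobase and mapped fragments. The lowest listed FPKM was 0.01. Expected counts and FPKM were summed per gene (Python 3.11.15, pandas 2.3.3), and counts were rounded. Of 23922 genes, 23801 matched a RefSeq symbol by Entrez number.

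Genes passing filterByExpr (18101) were tested in R 4.3.3 with edgeR 4.0.16: TMM scaling, 1 quasi-likelihood fit of the 12 libraries with 6 group means (residual degrees of freedom 6), two-sided tests, and Benjamini-Hochberg adjustment over all tested genes. SEs are the log2 fold change divided by the root of F, and the 95% intervals are built from them. For CRABP1 at day 19 the intervals are narrower than the p of the test allows, in T4 against T3 and in each hormone against DMSO. Replicates differed by more than sampling noise in every group (chi-square per gene 1.587 to 2.074 at day 7, 4.796 to 8.274 at day 19), so the shared fit overstates the spread of day 7 and understates that of day 19. Counting error follows from totals of 18363549 to 19306181. Alternatives used DESeq2 1.42.0, limma 3.58.1 on log2(FPKM + 0.1), other scalings, no filter, each day alone, a replicate block and leaving out each library. The methods were tested on simulated data.

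The members, gene lists and tests were chosen with earlier results of these data known. The rule for naming was all 9 members, 11 set pathway genes, the 4 genes of smallest p in each list, marker genes, and the 3 closest patterns per member.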

Additional observations from a re-analysis of the deposited data

Results flagged for a closer look

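For 7 values the hormone effect differed between the days in a test of the difference itself (edgeR, effect at day 19 minus effect at day 7). In all, 5 of 9 genes were called for T3, beside 38% of all tested genes, and 2 of 9 for T4, beside 27.7%.

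For T3 the difference was -3.70 for RBP4 (adjusted p = 8.35e-09), whose effect was -3.90 at day 19 and -0.20 at day 7. For CRABP2 it was -0.84 (adjusted p = 6.66e-06), with effects of -1.03 at day 19 and -0.19 at day 7. For CRABP1 it was -1.21 (adjusted p = 0.00079), with a value of -0.61 that did not pass at day 19 and a rise of 0.60 at day 7. For CYP26B1 it was -1.24 (adjusted p = 0.0186), with effects of -1.04 at day 19 and 0.20 at day 7, and it did not pass with DESeq2 (0.0687), without DMSO replicate 2 of day 7 (0.0757) or without T3 replicate 1 of day 7 (0.225). For ALDH1A3 it was -1.37 (adjusted p = 0.0325), a smaller log2 fold change at day 19 (2.38) than at day 7 (3.76), and it did not pass without any 1 of 6 of the 8 libraries (0.052 to 0.144) or with DESeq2 (0.102). The day 7 fold of ALDH1A3 stands on 5.22 and 3.72 expected counts in DMSO, and on log2(FPKM + 0.1) the difference was -0.38 (adjusted p = 0.392).

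For T4 the difference was -2.38 for RBP4 (adjusted p = 1.14e-06), with effects of -2.65 at day 19 and -0.27 at day 7. For CYP26A1 it was -0.43 (adjusted p = 0.0468), with effects of -0.40 at day 19 and 0.04 at day 7, and it did not pass without any 1 of 7 of the 8 libraries (0.061 to 0.193), the exception being DMSO replicate 1 of day 19 (0.0279). It also did not pass with DESeq2 size factors (-0.41, 0.0542), library totals (-0.28, 0.197), no filter (-0.44, 0.0622), the DESeq2 test (-0.42, 0.149) or limma on FPKM (-0.27, 0.206).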

How the results depend on the processing

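Over 7 alternatives, 510 of 540 member values kept their direction and their side of the threshold, 16 lost a call, 12 gained one and 2 reversed; without single libraries 360 of 396 did, 32 lost a call, 4 gained one and 0 reversed. Leaving out a library leaves its group with 1, which is then assumed to vary like the other groups. The reversals were CRABP2 between the days in DMSO, at -0.3625 with library totals and -0.3627 with limma on FPKM, against 0.04. Calls among the 9 genes moved for the T4 difference between days (1 with DESeq2 size factors, library totals, no filter or the DESeq2 test, against 2; with limma on FPKM 2, CYP26A1 lost and CRABP1 gained), for T4 at day 7 (1 with DESeq2 and 4 with that day alone, against 2), for T4 at day 19 (3 with DESeq2 and 3 with limma on FPKM, against 5), for the T3 difference between days (3 with DESeq2, against 5), for T3 at day 7 (5 with that day alone, against 3) and for T4 against T3 at day 7 (0 with limma on FPKM and 3 with that day alone, against 1). The cause was not tested.

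Calls over all genes moved with that day alone for T3 at day 7 (5142, against 2891), T4 at day 7 (3243, against 1162), T4 against T3 at day 7 (397, against 66; 34 with limma on FPKM) and T4 against T3 at day 19 (1444, against 2848). Without single libraries they ran from 1325 to 1476 for T3 at day 7, 370 to 406 for T4 at day 7, 19 to 24 for T4 against T3 at day 7 and 1522 to 3347 for T4 against T3 at day 19; calls among the 9 genes ran from 0 to 2 for T4 at day 7, 0 to 1 for T4 against T3 at day 7, 3 to 5 for the T3 difference and 1 to 2 for the T4 difference. With library totals the share of changed genes that was higher moved to 33.1% between the days in DMSO (51.9%), 66.1% for T4 at day 19 (48.9%), 56% for T3 at day 19 (47.9%), 47.9% for T3 at day 7 (59%), 62.5% for T4 against T3 at day 19 (47.2%; 38.2% with DESeq2 size factors), and 57.9% and 68.2% for the T3 and T4 differences (45% and 44.8%). Labels share replicate numbers, but deviations of same-numbered libraries correlated by -0.0778 to 0.125 over 15 pairs of groups, so the numbers were not taken as pairs; with a replicate block 2843 genes were called for T3 at day 7 and 9428 for T3 at day 19, and no call among the 9 genes changed. Depth limits ALDH1A2, ALDH1A3 and CYP26B1 at day 7 most.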
